A study of Danio rerio with 2 samples.

Results

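The miR-130 and miR-301 family comprises small RNAs that carry the same seed, the bases near the 5′ end by which a miRNA pairs with its target mRNAs. In the deposited values the family was taken by name, as every entry numbered mir-130, mir-301 or mir-454 with any letter. This gave 8 of the 173 listed miRNAs: mir-130a, mir-130b, mir-130c, mir-301a, mir-301b, mir-301c, mir-454a and mir-454b. Small RNA was sequenced from whole AB strain zebrafish embryos at 48 hpf, with 1 library from embryos injected at the 1-cell stage with MO-Tbx5a and 1 library from embryos injected with a control morpholino, MO-Ct. By the labels, each received 1.5 ng of morpholino and RNA came from a pool of 50 embryos. By the study's methods, the Tbx5 depleted embryos of the miRNA profiling received MO-Tbx5b as well as MO-Tbx5a and were picked under the microscope for the heartstring phenotype, so the Tbx5 depleted library is a selected pool. The libraries are called morphants and controls here, and the plots use the labels MO-Tbx5a and MO-Ct. Morpholinos act on the whole embryo and their effect is transient, and since mRNAs were not sequenced in these libraries, the depletion of Tbx5 could not be checked in them.

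A miRNA is cut from a hairpin in a longer transcript, and several hairpins are often cut from one transcript. Once loaded into an Argonaute protein, it lowers the translation and stability of mRNAs that match its seed, so members of a seed family can act on shared targets. In human endothelial cells miR-130a is known to repress the antiangiogenic homeobox genes GAX and HOXA5, and in mouse heart it is known to repress Fog2, a cofactor of GATA transcription factors. miR-130b is known in human liver tumours for repressing TP53INP1, miR-130 in human preadipocytes for repressing PPARG, and miR-301a in human pancreatic cancer cells for repressing NKRF, an inhibitor of NF-κB. TBX5 itself is a T-box transcription factor required for heart and forelimb or pectoral fin development.

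The unit was rpm (reads of a miRNA per 1000000 reads assigned to the listed miRNAs), so each library adds up to the same total and a value says nothing of absolute amounts. The rpm values corresponded to 580312 reads in all for the morphants and, in a library 1.98 times as deep, 1150157 for the controls. At these totals the entries above 0 went down to 11 reads in the morphants and 6 in the controls, below the minimum of 30 occurrences that the methods give for a sequence. The recovered reads thus conflict with that minimum, and the intervals hold only if these reads are the ones counted. FC is the rpm of the morphants divided by that of the controls, with no pseudocount. Intervals are 95% Clopper-Pearson intervals. They cover counting error only, and PCR copies are not independent molecules. With 1 library per condition there was no replicate, so no test between the conditions was possible and each difference compares these libraries. In a pool of whole embryos, fewer cells that make a miRNA and less of it per cell cannot be told apart. Of the miRNAs known for brain, miR-9 had 191730 rpm in the morphants and 210670 rpm in the controls, and miR-124 had 314 and 459 rpm. Of those known for muscle, miR-206 had 154331 and 143278 rpm, miR-1 had 27030 and 26377 rpm, and the 3 entries of miR-133 together had 2338 and 2554 rpm. For epidermis, the 2 entries of miR-203 together had 60688 and 51582.5 rpm, and miR-205 had 2916 and 2379 rpm. For blood and vessel, the 2 entries of miR-126 together had 1118 and 1238 rpm, miR-144 had 19.0 and 16.5 rpm, and miR-451 had 75.8 and 163 rpm. A typical well measured miRNA was slightly lower in the morphants: among the 107 above 200 rpm in each library the median FC was 0.910, or -0.14 in log2 units. The FC of the family are read against this median.

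All 8 members were listed above 0 in both libraries, and all 8 had a FC below 0.910. Lower values were common: of the 162 miRNAs above 0 in both libraries, 85 had a FC below 0.910. More than these 85 had a FC below 1, and 11 other listed miRNAs were at 0 in the morphants only. The summed level of the members was 4697 rpm in the morphants and 7283 rpm in the controls, from 2726 and 8377 reads. The family thus took 0.470% (95% interval 0.452 to 0.488) of the assigned reads in the morphants and 0.728% (0.713 to 0.744) in the controls. The summed FC was 0.645 (0.617 to 0.674), or 0.709 relative to the median FC. FC of single members ran from 0.420 for mir-301a to 0.765 for mir-454b, with a median of 0.605, whereas over all 162 miRNAs with a value above 0 in each library the median was 0.897. On the log2 scale these medians were -0.73 for the members and -0.16 for all 162.

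Among the miR-130 entries, mir-130b was the most abundant member of the family in both libraries. In morphants it had 1954 rpm (1134 reads), against 3340 rpm (3842 reads) in controls. The FC was 0.585 (0.547 to 0.625), the narrowest interval among the miR-130 entries. mir-130c, whose entry joins 2 hairpins, had 581 and 917 rpm in the same order. This was a FC of 0.633 (0.558 to 0.716), and its interval overlapped that of mir-130b. mir-130a, the member known from endothelium and heart, was far less abundant, with 65.5 rpm in the morphants and 141 rpm in the controls. It rested on 38 and 162 reads and had a FC of 0.465 (0.318 to 0.665), the lowest of the miR-130 entries, although its wide interval held the FC of both others.

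The miR-301 entries were rare, with at most 271 rpm. mir-301a had 55.1 rpm in the morphants and 131 rpm in the controls, from 32 and 151 reads, a FC of 0.420 (0.277 to 0.618). This was the lowest FC of the family and the fifth lowest of the 162 miRNAs above 0 in both libraries. The 11 miRNAs at 0 in the morphants are not ranked. mir-301b had 51.7 and 102 rpm, from 30 and 117 reads, and a FC of 0.508 (0.328 to 0.764). mir-301c had 191 rpm in morphants and 271 rpm in controls, from 111 and 312 reads, and its FC of 0.705 (0.563 to 0.878) was the highest of the miR-301 entries. The ratio of the FC of mir-301a to that of mir-301c was 0.596 (exact conditional 95% interval 0.371 to 0.938), so these entries differed beyond counting error when taken as a single pair.

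The miR-454 entries were the least reduced in sum. mir-454b, the second most abundant member, had 1699 rpm in the morphants and 2221 rpm in the controls, from 986 and 2554 reads. Its FC was 0.765 (0.710 to 0.824), the highest in the family. mir-454a had 100.0 and 160.0 rpm, from 58 and 184 reads, a FC of 0.625 (0.457 to 0.843). Summed by number, miR-130 had a FC of 0.591 (0.558 to 0.626), miR-301 of 0.591 (0.496 to 0.702) and miR-454 of 0.756 (0.703 to 0.812). The FC of miR-130 relative to that of miR-301 was 1.00 (0.834 to 1.20), and a difference within that interval was not detectable at this depth. Relative to miR-454, the FC of miR-130 was 0.782 (0.713 to 0.858) and that of miR-301 was 0.782 (0.647 to 0.943).

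**Figure D1:**
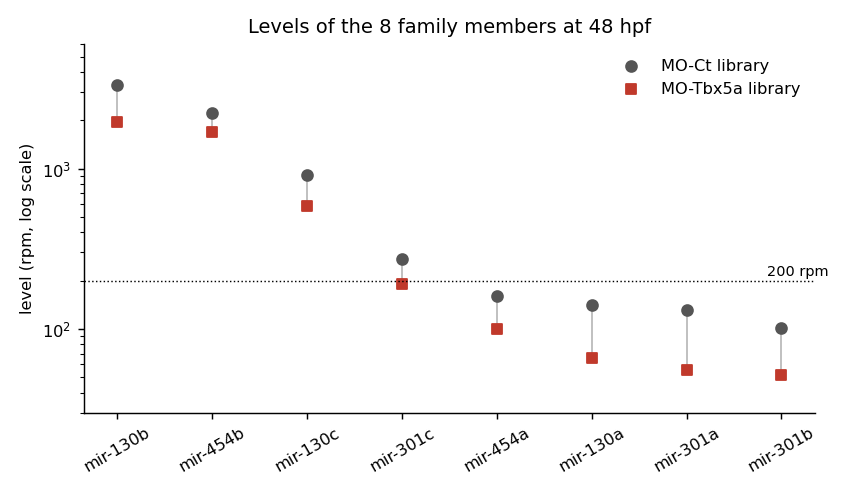
Level of each family member in rpm (log axis) in the MO-Ct library (grey circles) and the MO-Tbx5a library (red squares), 1 library each, ordered by the MO-Ct level. All 8 red squares lie below their grey circle, and the order of the members is the same in both libraries, from mir-130b at 3340 and 1954 rpm down to mir-301b at 102 and 51.7 rpm. Of the 162 miRNAs above 0 in both libraries, 85 had a FC below 0.910, as did these 8, and more than 85 had a FC below 1.

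The order of the levels was the same in both libraries: mir-130b, mir-454b, mir-130c, mir-301c, mir-454a, mir-130a, mir-301a and mir-301b. In the controls the most abundant member had 32.8 times the rpm of the least abundant, and in the morphants 37.8 times. Neighbours in this order differed beyond counting error from mir-130b down to mir-454a in both libraries. mir-454a and mir-130a did not, at 184 and 162 reads in the controls (ratio 1.14, 0.915 to 1.41) and 58 and 38 reads in the morphants (1.53, 0.997 to 2.36). Nor did mir-130a and mir-301a in either library. mir-301a was above mir-301b beyond counting error in the controls (1.29, 1.01 to 1.66) and not in the morphants (1.07, 0.628 to 1.82). Levels of different miRNAs in a library also depend on how well each sequence is ligated and amplified, so the order describes these libraries.

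Although the order was kept, the make-up of the family differed between the libraries. mir-130b made up 45.9% (44.8 to 46.9) of the family's reads in the controls and 41.6% (39.7 to 43.5) in the morphants. mir-454b made up 30.5% (29.5 to 31.5) and 36.2% (34.4 to 38.0). Of the remaining 6 members, mir-130c had nearly the same share, 12.6% (11.9 to 13.3) and 12.4% (11.1 to 13.7), and the other 5 each stayed below 5%. As shares add up to the whole, the larger share of mir-454b follows from its FC being the highest and does not mean that its own level was higher.

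**Figure D2:**
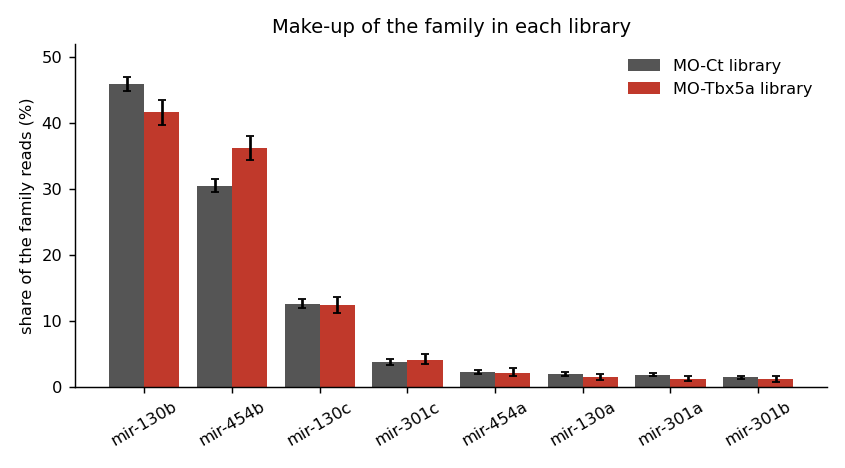
Share of the family's reads (%) held by each member in the MO-Ct library (grey, 8377 reads) and the MO-Tbx5a library (red, 2726 reads), with 95% Clopper-Pearson intervals for counting error. mir-130b held 45.9% and 41.6%, mir-454b 30.5% and 36.2%.

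The members were compared with one another by the ratio of their FC in all 28 pairs. In 6 pairs the exact conditional 95% interval of the ratio excluded 1, and 4 of these involved mir-454b. When the confidence level was raised to 99.8% to allow for 28 pairs, 1 pair was left, mir-130b against mir-454b, with a ratio of 0.765 (95% interval 0.692 to 0.845). These are the most abundant members, and the reads behind them set how narrow this interval is. For the other pairs the wider intervals included 1, which does not show that their FC were alike.

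In RefSeq's gene table of the zebrafish assembly GRCz12tu, used here for names and gene order only, the hairpins of the family fell into 3 groups, with 0 other genes starting between the hairpins of a group. mir-454a, mir-301a and mir-130a follow one another within ska2, a gene of the kinetochore complex that attaches chromosomes to spindle microtubules; the annotated span of mdh2 covers them too. One mir-130c hairpin, mir-301b, mir-454b and mir-130b lie between top3b, which encodes a DNA topoisomerase, and sdf2l1, which encodes an endoplasmic reticulum protein. The other mir-130c hairpin and mir-301c lie between sppl3 and nt5c2l1. Of the 11 hairpins that the 8 entries name, 10 matched a gene of the annotation, and these were 9 genes, since both hairpins of mir-301a matched the same gene. The second hairpin of mir-130a had no match, so the mir-130a entry may hold reads from outside ska2. The reads of the mir-130c entry cannot be assigned to either group.

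The 3 entries within ska2 together had 221 rpm in the morphants and 432 rpm in the controls, a FC of 0.510 (0.417 to 0.621). The 3 entries found only between top3b and sdf2l1 had 3705 and 5663 rpm, and their FC was 0.654 (0.623 to 0.687). The ratio of these FC was 0.780 (0.633 to 0.956), so the ska2 group was lower by more than counting error. It was also the rarer group, and level and position cannot be told apart here. Within each of these groups the FC had the same order, with miR-301 lowest, miR-130 next and miR-454 highest. In the sdf2l1 group mir-130b differed from mir-454b as above, while the ratio of mir-301b to mir-454b, 0.664, had an interval of 0.426 to 1.01. In the ska2 group none of the 3 ratios had an interval that excluded 1, mir-130a against mir-454a having 0.744 (0.456 to 1.21) and mir-301a against mir-454a 0.672 (0.401 to 1.12). The order is thus a description of the values. In the group next to nt5c2l1 the order was the other way round, with mir-301c above mir-130c, whose entry also holds reads of the other group.

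**Figure D3:**
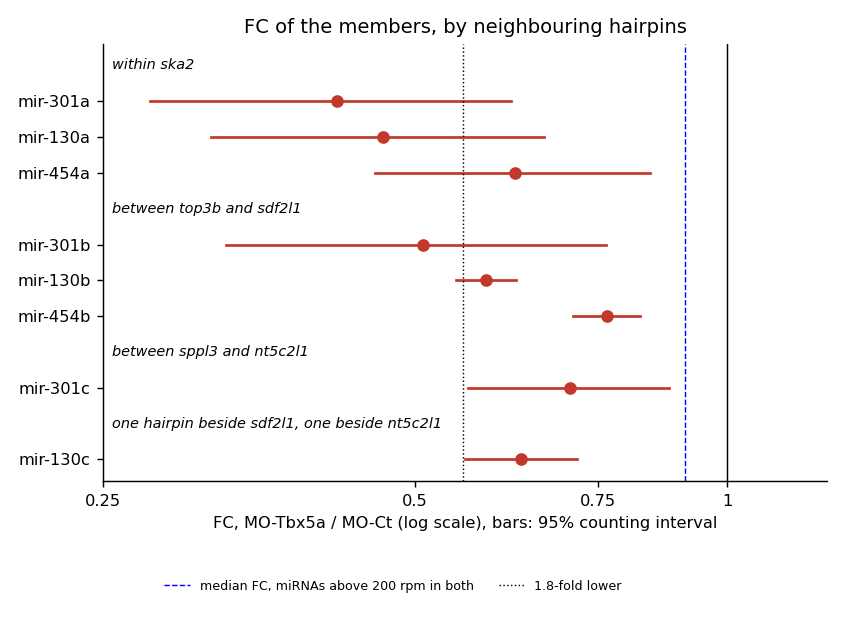
FC of each member (log axis, MO-Tbx5a over MO-Ct library) with its 95% counting interval, grouped by the genes that surround the hairpins. The dashed line is the median FC of 0.910 of miRNAs above 200 rpm in both libraries and the dotted line marks a 1.8-fold lower level; all 8 intervals end below the dashed line, and in the first 2 groups miR-301 is lowest and miR-454 highest.

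The study took a miRNA as modulated when its FC reached 1.8 and its level exceeded 200 rpm. A figure legend can be read as setting this minimum in the Tbx5 depleted embryos, while the main text names no library. mir-7b, which the study followed, had 129 rpm in the morphants and 361 rpm in the controls, so the library meant is not clear. With the minimum applied to the controls, 0 of the 8 members were at least 1.8-fold lower, against 4.05% of all 173 miRNAs (7 miRNAs). The count of members was also 0 with the minimum applied to the morphants. The share over all miRNAs was not computed for that setting, so this count does not set the family apart. With the minimum applied to the sum of both libraries, a choice made after seeing the data, 1 of the 8 members passed, against 5.78% of all 173 miRNAs (10 miRNAs). This was mir-130a, at 206.3 rpm in sum and a FC of 0.465, the member whose mimic the study co-injected with the morpholino. The study also followed miR-190b, which had 27.6 rpm in the morphants and 104 rpm in the controls and did not pass this minimum. The sum is therefore not shown to be the rule of the study. The study took miR-130a up as a possible effector of Tbx5 and reported that this co-injection was ineffective. It was done with MO-Tbx5a alone, in transgenic embryos scored at a later stage than those sequenced here. The study's text does not name miR-130a among the miRNAs raised by Tbx5 overexpression in mouse cardiac cell lines. Of the 4 members above 200 rpm in the controls, mir-130b came closest, its interval reaching across 0.556, the FC of a 1.8-fold lower level, while mir-130c, with an interval from 0.558, and mir-454b and mir-301c did not reach it. Without a minimum, 3 of the 8 members were at least 1.8-fold lower, mir-130a, mir-301a and mir-301b, against 9.88% of the 162 miRNAs with a value above 0 in each library. Each of these 3 was below 200 rpm in both libraries, and each interval reached across 0.556.

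The interval of the FC lay below 1 in 8 of 8 members, against 45.7% of the 162 miRNAs. It lay below the median FC of 0.910 in 8 of 8 members as well, against 34.0% of the 162. An interval is narrower for an abundant miRNA, so these shares depend on depth. Of the 8 members, 4 had fewer than 200 reads in the controls, and the share of miRNAs at that depth was not computed. Among other miRNAs at that depth, some, such as mir-451, had an interval below 0.910 and others, such as mir-138, did not. By FC, 6 of the 8 members were among the 40 lowest of the 162, and the remaining members, mir-301c and mir-454b, had rank 41 and 49.

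**Figure D4:**
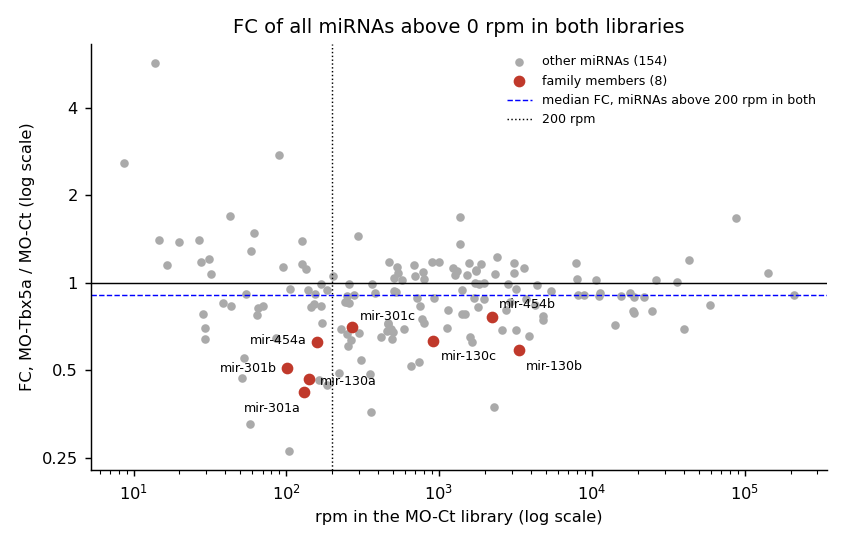
FC of all 162 miRNAs above 0 in both libraries (log axis) against their rpm in the MO-Ct library (log axis), with the 8 family members in red. The members spread over the range from 102 to 3340 rpm and all lie below the dashed line at 0.910, as do 85 of the 162.

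In sum, the rarer members had the lower FC, although mir-454a (0.625) was above mir-130b (0.585), the most abundant member. The members with up to 200 rpm in the controls, mir-130a, mir-301a, mir-301b and mir-454a, had a summed FC of 0.510 (0.425 to 0.608), and the 4 more abundant members one of 0.656 (0.627 to 0.686). The ratio was 0.778 (0.645 to 0.934). mir-301b, mir-301a and mir-130a rested on 30, 32 and 38 reads in the shallower morphant library. Among the non-members with a value above 0 in each library, the median FC was 0.927 for the 42 with up to 200 rpm in the controls and 0.903 for the 112 above it. This leaves out 11 non-members at 0 in the morphants, all of them rare, with at most 51.3 rpm in the controls. Their FC would be the lowest, so these medians do not show whether rarer miRNAs had lower FC in general. For each member the median FC of the 40 miRNAs nearest in mean rpm, other members included, was between 0.828 and 0.991, and all 8 members were below the median of their own neighbours. Of the miRNAs next above and next below each member in control rpm, the member had the lower FC in 5 of 8 and in 7 of 8 comparisons. These counts against neighbours were not made for the other miRNAs, so they have no background and do not set the family apart. Next to mir-301a, for instance, mir-138 had 152 and 136 rpm and mir-146b 177 and 127 rpm in morphants and controls, FC of 1.12 and 1.40. mir-190b next to mir-301b, mir-451 next to mir-454a, mir-219 next to mir-454b and mir-18b next to mir-301c had lower FC than the member, 0.264, 0.464, 0.372 and 0.634.

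Other miRNAs resemble the family in the seed region but are shifted along the sequence by a base. These are miR-19 on one side and miR-148 with miR-152, known in human cells for repressing DNMT1, on the other. The 4 miR-19 entries together had 2102 rpm in the morphants and 3353 rpm in the controls, a FC of 0.627 (0.587 to 0.669). Relative to the family this was 0.972, with an interval of 0.899 to 1.05. miR-148 and miR-152 together had 16672 and 20441 rpm. Their FC was 0.816 (0.796 to 0.835), which was 1.26 times (1.20 to 1.33) that of the family. Within this group miR-148 had a FC of 0.799 (0.779 to 0.819) and miR-152 of 0.999 (0.926 to 1.08). The 4 entries of miR-17, miR-20 and miR-93, whose seed is another, together had 21071 and 26465 rpm, a FC of 0.796 (0.780 to 0.813) and 1.23 times (1.18 to 1.30) that of the family. All other listed miRNAs together were 1.55 times (1.49 to 1.62) the FC of the family. Each library adds up to the same total, and the family took at most 0.728% of it. This ratio therefore follows from the family's own FC and is no separate comparison. The summed FC of the family thus differed beyond counting error from those of miR-148 with miR-152 and of the miR-17 group. The interval against miR-19 included 1. The groups were not separated entry by entry, as mir-20a (0.713) was below mir-454b (0.765) of the family.

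**Figure D5:**
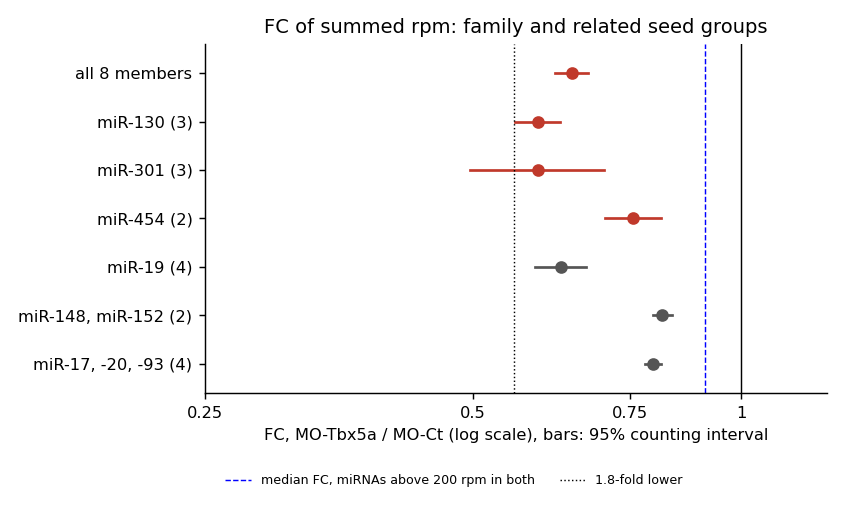
FC of summed rpm (log axis, MO-Tbx5a over MO-Ct library) with 95% counting intervals, for the whole family and its 3 numbers (red) and for groups set beside it (grey), with the number of entries in brackets. The family (0.645) and miR-19 (0.627) overlap, whereas miR-148 with miR-152 (0.816) and the miR-17 group (0.796) lie closer to the dashed line at the median FC of 0.910.

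A shared direction within a family was not particular to these miRNAs. Apart from the family, 12 name numbers had at least 3 entries that were all listed above 0 in both libraries, and in 5 of these, with 16 entries in all, every entry was below the median FC of 0.910. By the median FC of its entries, the miR-130, miR-301 and miR-454 family was the lowest of the 13, at 0.605, followed by miR-19 at 0.616, miR-18 at 0.650 and miR-153 at 0.652. The family joins 3 name numbers here, while each other group is a single number, so the ranked groups are not alike. Numbers with fewer entries were not ranked, among them miR-7 (mir-7a 0.536, mir-7b 0.358) and miR-190 (mir-190 0.470, mir-190b 0.264), whose FC were lower than 0.605. Family members can share reads, as an annotation that allowed 2 mismatches could divide reads between near-identical names, so the entries of a family are not independent values. The sum over the whole family does not depend on how reads were divided within it, whereas the sums by number, by hairpin group and by level do.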

How the data were processed

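Small RNA libraries (Illumina small RNA v1.5 protocol, GAIIx) were made by the authors from total RNA, 1 per condition. The authors trimmed adaptors, collapsed identical reads between 18 and 33 nt, kept, by their methods, sequences with 30 or more occurrences, annotated them to the zebrafish entries of miRBase 16.0 with 2 mismatches and 2 extra bases at each end allowed, and deposited rpm per hairpin name. The entry names do not mark the arm of a hairpin, and whether both arms share an entry is not known. Names marked with several loci were read as 1 entry. All 173 values of each library were whole reads within 0.005 rpm for the totals of 580312 and 1150157 reads, the smallest totals between 50000 and 3000000 for which this held. At these totals 19 entries of the MO-Tbx5a and 14 of the MO-Ct library lay above 0 and under 30 reads, and 11 entries were under 30 over both libraries, so how the minimum of occurrences was applied to the deposited values is not known. A count of 3 reads, the limit that a count of 0 allows, was 5.17 rpm in the MO-Tbx5a and 2.61 rpm in the MO-Ct library.

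FC, exact Clopper-Pearson intervals and, for the ratio of 2 FC, exact conditional intervals of the odds ratio were computed. The recovery of the totals and the Clopper-Pearson intervals were tested on simulated data, and the conditional intervals were not. With 1 library per condition no count model was fitted and no test between conditions was made. The design written for this work named 5 members and pairs among them; the rule by name gave 8, all of which were used, and the sum over the 5 was added as an alternative after the data were seen. The members and lists were chosen with earlier results of these data known. Named are the members, the miRNAs next to each in MO-Ct rpm, the hairpins beside the members, and the groups of related seed. miR-106, named with miR-17, miR-20 and miR-93 as a group for comparison, had no entry among those used and was not analysed here. Of the lists of tissue miRNAs, miR-9, miR-124, miR-206, miR-1, miR-133, miR-203, miR-205, miR-126, miR-144 and miR-451 were each listed above 0 in both libraries, from 16.5 rpm for miR-144 to 210670 rpm for miR-9 in the MO-Ct library.

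Alternatives were rescaling by the median FC, by the mean log ratio after trimming (at each end 30% by ratio and 5% by level), without the 3 most abundant miRNAs or on the 40 nearest miRNAs in mean rpm, a pseudocount of 1 or 10 rpm, summing over letters, other rpm minimums, a FC of 1.5 or 2, and the family without mir-130b. Software versions were SciPy 1.17.1, NumPy 2.4.6, Matplotlib 3.10.9 and pandas 2.3.3 under Python 3.11.15.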

Additional observations from a re-analysis of the deposited data

How the results depend on the processing

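No paired analysis was possible because there is only 1 library of each kind, and leaving out a replicate could not be run either. The summed FC of the family, 0.645, stayed below 1 in every alternative run. It was 0.709 after division by the median FC, 0.724 with the trimmed mean of log ratios, 0.711 without the 3 most abundant miRNAs, 0.678 when each member was divided by the median FC of its 40 neighbours in level, and 0.696 without mir-130b. With the 5 members of the shorter list, an alternative chosen after seeing the data, it was 0.585. All of these values lay outside the counting interval of the sum, 0.617 to 0.674, and only the pseudocounts left the sum inside it. The size of the summed FC thus depends on the scaling and on the members counted. For single members all 56 alternatives were below 1, and 50 of them were inside the counting interval of the FC as deposited. The 6 outside it were the rescalings by the median FC, by the trimmed mean and by leaving out the 3 most abundant miRNAs, for mir-130b and mir-454b. The count of members past both thresholds was 0 of 8, while 4.05% of all 173 miRNAs were at least 1.8-fold lower and passed. It became 3 with no minimum, against 9.88% of the 162 miRNAs above 0 in both libraries. With the minimum on the sum of both libraries, an alternative chosen after seeing the data, it became 1, against 5.78% of all 173. It became 3 with a minimum of 100 rpm in the MO-Ct library and 2 with a FC of 1.5. Without the 3 most abundant miRNAs it became 2, as the rpm of all others is larger there and more members pass 200 rpm. The share over all miRNAs was not computed for these other settings, so their counts do not set the family apart. The changes in the count follow from the thresholds. The FC of miR-19, of miR-148 with miR-152 and of the miR-17 group relative to the family stayed inside their intervals in every alternative. A common factor cancels in such a ratio and is no check of it. Dividing by the 40 neighbours in level, which is not a common factor, moved the ratio of miR-19 from 0.972 to 0.989. The same step moved the ratio of miR-148 with miR-152 from 1.26 to 1.32 and that of the miR-17 group from 1.23 to 1.26. Depth limits mir-130a, mir-301a, mir-301b and mir-454a most, with 30 to 58 reads in the MO-Tbx5a library.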
